A study of Mus musculus with 8 samples.

Results

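Immunity-related GTPases (IRGs) were examined in mouse CD8+ T cells that had been treated with DADA or with DMSO. The 7 genes *Irgm1*, *Irgm2*, *Igtp*, *Iigp1*, *Ifi47*, *Tgtp1* and *Tgtp2* were taken by symbol from the 22520 genes in the deposited table, and all 7 were found. They were also all among the 10666 genes tested, a set limited to those with 1 FPKM or more in 4 or more of the 8 libraries. FPKM divides a gene's fragments by the length of its transcript and by the mapped total, so levels of different genes can be set side by side. CD8+ T cells purified from the spleens of wild-type C57BL/6J mice were stimulated with antibodies against CD3 and CD28 and with IL-2 in culture. DADA (diisopropylamine dichloroacetate, an inhibitor of pyruvate dehydrogenase kinase) was added at 40 µM from day 3, the control cells received DMSO, and both were harvested on day 6. Each group had 4 replicate libraries, called DMSO 1 to 4 and DADA 1 to 4 below. The labels do not say whether they came from separate mice, so p-values measure the spread between these libraries.

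IRGs are GTPases of host defence that interferons induce in mouse cells, mainly IFN-γ. The regulatory members sit on the membranes of the cell's own organelles and keep the effector members in their inactive, GDP-bound state. The effector members, once loaded with GTP, coat the vacuoles of intracellular parasites and bacteria and disrupt them, a process best known from macrophages and fibroblasts. In CD4 T cells, loss of *Irgm1* is known to make activated cells die in response to IFN-γ.

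The IRG genes rose with DADA. By limma with Benjamini-Hochberg adjustment, 7 of 7 were called higher and 0 lower, where 30.9% of all genes tested were called higher and 35.3% lower, together 66.2%. All 4 DADA libraries lay above all 4 DMSO libraries for 7 of 7, which was the case for 28.4% of all genes tested, and in the opposite direction for 32.2%. *Irgm1* and *Iigp1*, 2 of the 7, were called with a log2 difference of at least 1, as were 3.56% of all genes tested. The median log2 difference of the 7 genes was 0.85, with a range from 0.41 to 1.37, while the median over all genes tested was -0.02 and 5% of them exceeded 0.82. Differences are on the log2(FPKM + 1) scale, which understates the change of genes with low FPKM. These are bulk libraries, in which fewer cells of a type and less RNA per cell cannot be told apart.

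The genes lie in 2 stretches of chromosome 11 and, for *Iigp1*, on another chromosome. In the GRCm38 annotation, *Irgm1* (chr11:48861968-48871683, minus strand), *Tgtp1* (chr11:48985327-48994172, minus strand), *Tgtp2* (chr11:49057194-49064206, minus strand) and *Ifi47* (chr11:49076587-49096974, plus strand) follow each other. *Igtp* (chr11:58199556-58207591) and *Irgm2* (chr11:58199618-58222782) overlap on the plus strand, since an annotated form of *Irgm2* starts within *Igtp*.

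The sequence before the start site is shown for 5 of the genes because it holds the letters through which interferon-activated factors are known to bind DNA. The 250 bases before the start of each gene were searched on both strands for GAAANNGAAA, the core of the interferon-stimulated response element (ISRE) bound by interferon regulatory factors, and for TTCNNNGAA, the gamma-activated site (GAS) known from IFN-γ target genes. Promoters of 6 of the 7 genes were found in the RefSeq table of 32851 promoters (GRCm38.p6), with *Iigp1* missing. The starts are those of RefSeq and can differ from the gene bounds given above. The stretches shown for *Irgm1*, *Irgm2* and *Tgtp1* lie inside those bounds. Distances, and the lack of a match, therefore hold for the RefSeq start and not for every annotated start. ISRE letters were in 2.98% of all promoters, GAS letters in 7.02% and both in 0.332%. The stretches below are written on the gene's own strand, with capitals for the matched letters.
Irgm1, chr11:48871428-48871457, minus strand: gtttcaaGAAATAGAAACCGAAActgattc
Irgm2, chr11:58214882-58214942, plus strand: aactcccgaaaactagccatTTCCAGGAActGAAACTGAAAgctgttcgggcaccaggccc
Igtp, chr11:58199491-58199551, plus strand: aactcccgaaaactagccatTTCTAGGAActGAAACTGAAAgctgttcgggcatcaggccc
Tgtp1, chr11:48992294-48992354, minus strand: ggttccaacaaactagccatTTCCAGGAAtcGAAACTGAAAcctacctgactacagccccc
Tgtp2, chr11:49064253-49064313, minus strand: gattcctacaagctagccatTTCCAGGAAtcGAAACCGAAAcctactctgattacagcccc

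*Irgm2*, *Igtp*, *Tgtp1* and *Tgtp2* had the same arrangement, a GAS match, then 2 bases, then an ISRE match. A GAS match followed within 5 bases by an ISRE match was present in 6 of the 32851 promoters (0.0183%). The arrangement counted is the one seen in these 4 genes, so their place among the 6 follows from its definition. These 6 were the 4 IRG genes, a further IRG family gene, *Gm12185*, and *Bst2*, which encodes the antiviral membrane protein tetherin. The GAS match began 75 bases before the start of *Irgm2*, 45 before that of *Igtp*, 88 before that of *Tgtp1* and 81 before that of *Tgtp2*. Of the 61 bases shown, 59 were the same in *Irgm2* and *Igtp* and 47 in *Tgtp1* and *Tgtp2*, while *Irgm2* and *Tgtp1* shared 41. As these stretches resemble each other, the 4 genes are not independent cases of the arrangement. *Irgm1* had 2 overlapping ISRE matches, the first beginning 30 bases before the start, and no GAS match. *Ifi47* had neither set of letters in its window. These matches describe letters and do not show binding, and the 4 genes with the paired arrangement had log2 differences from 0.41 (*Igtp*) to 0.96 (*Tgtp2*).

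Among the regulatory IRGs, *Irgm1* showed the widest separation of the groups. Its level was 14.1, 16.2, 16.2 and 15.95 FPKM in DMSO 1 to 4 and 42.4, 41.4, 43.3 and 40.8 FPKM in DADA 1 to 4. No values overlapped, and DMSO 1 was the lowest library of its group. The log2 difference was 1.37 (SE 0.0440, 95% confidence interval 1.28 to 1.47, adjusted p = 2.50e-09, limma with Benjamini-Hochberg), and without DMSO 1 it was 1.33. This placed *Irgm1* at rank 199 of the 10666 genes tested, counted from the largest rise.

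*Igtp*, which encodes the regulatory protein Irgm3, was the most abundant IRG transcript in every library. It stood at 91.2, 91.3, 93.0 and 94.7 FPKM in DMSO 1 to 4 and at 119, 123, 124 and 127 FPKM in DADA 1 to 4. The groups did not overlap, and the log2 difference of 0.41 was the smallest of the 7 genes (95% confidence interval 0.36 to 0.47, adjusted p = 2.19e-07, limma with Benjamini-Hochberg).

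*Irgm2* encodes the remaining regulatory protein. It was measured at 10.3, 9.55, 9.92 and 9.44 FPKM in DMSO 1 to 4 and at 14.3, 14.1, 14.1 and 14.1 FPKM in DADA 1 to 4. The DADA libraries were all above the DMSO libraries and lay close together, with a coefficient of variation of 0.654%. The log2 difference was 0.49 (95% confidence interval 0.41 to 0.57, adjusted p = 1.02e-06, limma with Benjamini-Hochberg).

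Among the effector IRGs, *Ifi47*, which encodes Irgd, had the highest level. It was at 32.9, 30.9, 32.8 and 34.8 FPKM in DMSO 1 to 4 and at 58.4, 57.8, 61.9 and 62.1 FPKM in DADA 1 to 4. Every DADA value exceeded every DMSO value, with a log2 difference of 0.85 (95% confidence interval 0.76 to 0.94, adjusted p = 3.95e-08, limma with Benjamini-Hochberg).

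*Iigp1* encodes Irga6, an effector that loads onto pathogen vacuoles, and was the least abundant of the 7 transcripts. Its values were 5.39, 5.65, 5.27 and 4.69 FPKM in DMSO 1 to 4 and 11.4, 11.4, 11.6 and 12.1 FPKM in DADA 1 to 4. The lowest DADA library was 101.5% above the highest DMSO library. The log2 difference was 1.02 (95% confidence interval 0.90 to 1.13, adjusted p = 7.61e-08, limma with Benjamini-Hochberg). The estimated number of fragments behind its lowest value was 212, which gives a counting error of 6.86%, the largest of the 7 genes.

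*Tgtp1* and *Tgtp2* both encode Irgb6, another vacuole-coating effector. *Tgtp1* was at 10.99, 10.6, 12.1 and 11.4 FPKM in DMSO 1 to 4 and at 18.04, 19.5, 19.1 and 18.4 FPKM in DADA 1 to 4. *Tgtp2* was at 8.60, 7.16, 7.72 and 7.78 FPKM in DMSO 1 to 4 and at 16.1, 16.1, 16.4 and 15.8 FPKM in DADA 1 to 4. Neither gene's groups overlapped. The log2 difference was 0.69 for *Tgtp1* (95% confidence interval 0.59 to 0.79, adjusted p = 4.26e-07) and 0.96 for *Tgtp2* (0.85 to 1.07, adjusted p = 7.12e-08), by limma with Benjamini-Hochberg.

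How fragments are divided between *Tgtp1* and *Tgtp2* is uncertain. Their longest protein-coding transcripts in GENCODE M21 are identical at 99.8% of aligned bases, and 71.3% of all 150-base windows of *Tgtp1*, the length of 1 read, occur unchanged in *Tgtp2*. Their sum does not depend on that division. The DMSO libraries had a sum of 19.1 ± 0.942 FPKM and the DADA libraries of 34.9 ± 0.800 FPKM (mean ± SD of 4 libraries each), a log2 ratio of 0.87. By the two-sided exact permutation test over 70 assignments of the libraries this had p = 0.0286, the smallest this design allows. For *Igtp* and *Irgm2* the shared windows were few, 0.854% of those of *Igtp*, although their gene models overlap. These windows of *Igtp* lie in another form of *Irgm2*, since the longest protein-coding transcript of *Irgm2*, the one whose windows were searched, had 0 shared windows. *Irgm1*, *Iigp1* and *Ifi47* were checked in the same way, with 0 shared windows each.

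**Figure D1:**
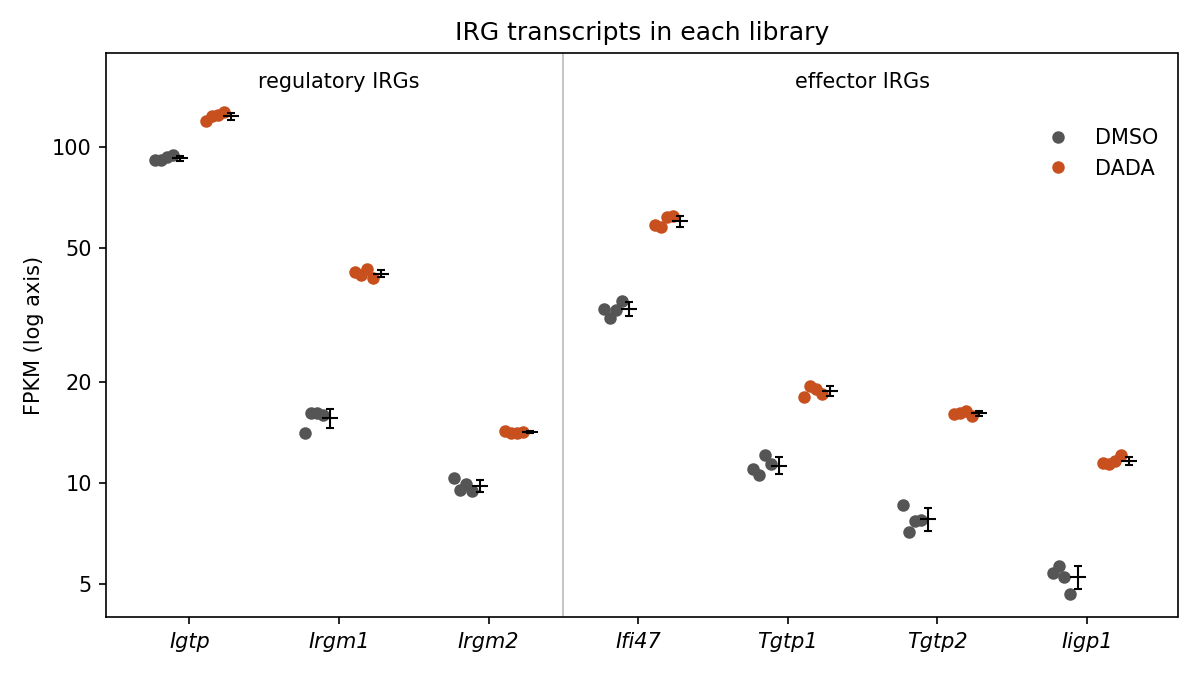
FPKM of the 7 IRG genes on a log axis, 1 point per library, with DMSO in grey, DADA in orange, and the black mark and bar giving the mean and SD of 4 libraries. Every DADA point is above every DMSO point of the same gene, from *Iigp1* (4.69 to 5.65 against 11.4 to 12.1) up to *Igtp* (91.2 to 94.7 against 119 to 127).

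The order of the levels was almost the same in both groups. With DMSO it ran from *Igtp* through *Ifi47*, *Irgm1*, *Tgtp1*, *Irgm2* and *Tgtp2* down to *Iigp1*. With DADA the order was the same except that *Tgtp2* (15.8 to 16.4 FPKM) stood above *Irgm2* (14.1 to 14.3 FPKM), while with DMSO *Irgm2* (9.44 to 10.3 FPKM) had stood above *Tgtp2* (7.16 to 8.60 FPKM). Neighbours in the order did not overlap in either group, with the division between *Tgtp1* and *Tgtp2* uncertain as above. The spread within the DADA group was below the median of genes at like levels for each of the 7 genes. Within the DMSO group it lay on both sides of that median. The coefficients of variation of the 7 genes were 1.77% to 7.78% with DMSO and 0.654% to 3.81% with DADA, against medians of 4.13% and 3.97% over the 7807 genes tested with a mean of 5 to 150 FPKM.

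The 7 genes did not rise by the same amount. With *Tgtp1* and *Tgtp2* taken as their sum there were 15 pairs, each put to a two-sided exact permutation test of the within-library difference, and 11 passed after Benjamini-Hochberg adjustment (p = 0.0286, adjusted p = 0.0390 each). *Irgm1* rose by more than each of the other 5, by 0.36 on the log2 scale over *Iigp1*, 0.52 over *Ifi47*, 0.54 over the Tgtp sum, 0.89 over *Irgm2* and 0.96 over *Igtp*. Its difference from *Iigp1* depends on the pseudocount, since with 0.1 FPKM in place of 1 FPKM, tried after the data were seen, it was 0.29 with adjusted p = 0.0659 in the same exact test.

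*Iigp1*, *Ifi47* and the Tgtp sum each rose by more than *Irgm2* and *Igtp*. The margins lay between 0.35 (the Tgtp sum over *Irgm2*) and 0.61 (*Iigp1* over *Igtp*). Among the effectors no pair passed in the exact test, with adjusted p = 0.107 for *Iigp1* and *Ifi47* (a margin of 0.17), 0.122 for *Iigp1* and the Tgtp sum (0.18) and 0.771 for *Ifi47* and the Tgtp sum (0.01). With the pseudocount of 0.1 FPKM the margin of *Iigp1* over *Ifi47* was 0.27 and did pass the exact test (adjusted p = 0.0390). The regulators *Irgm2* and *Igtp* differed by 0.08 (exact test, adjusted p = 0.122).

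**Figure D2:**
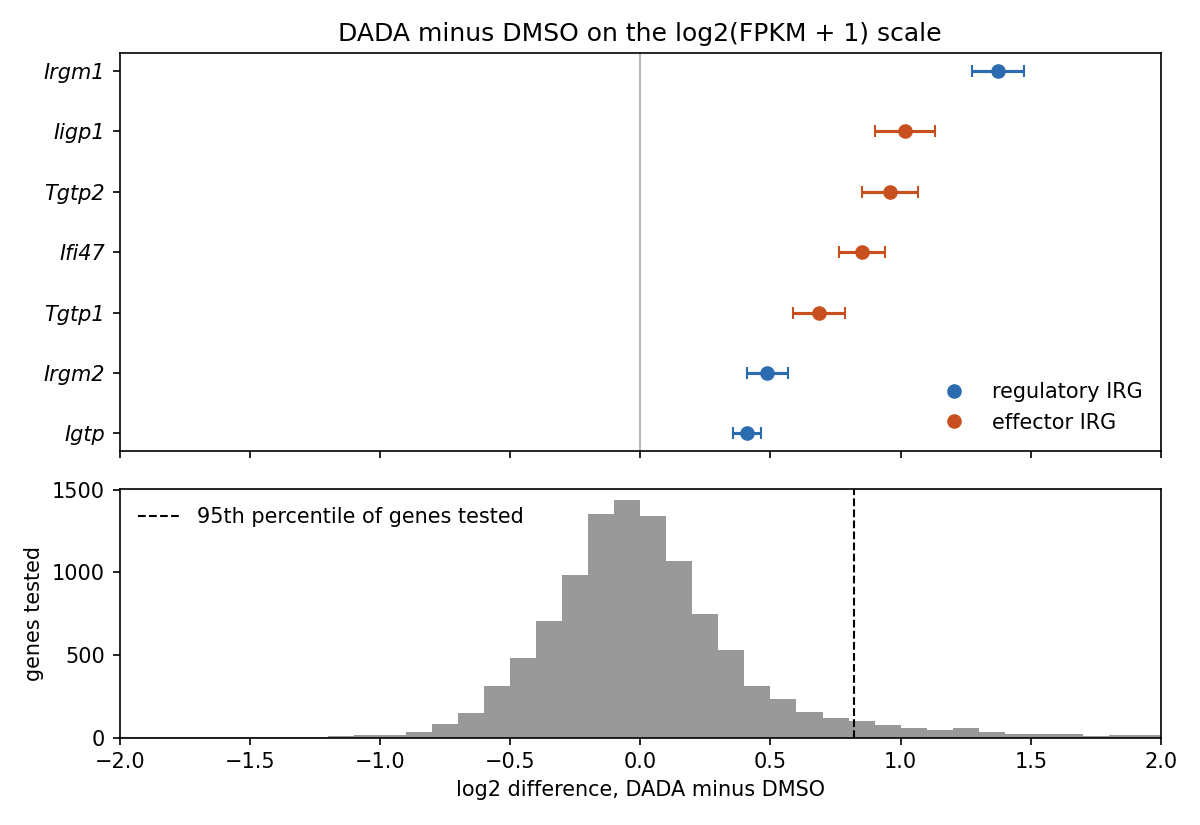
Upper panel, log2(FPKM + 1) difference (DADA minus DMSO) of each IRG gene with its 95% confidence interval from limma, blue for regulatory and orange for effector genes. Lower panel, number of genes tested by their log2 difference, with the dashed line at the 95th percentile (0.82). The plot stops at 2 in both directions, which leaves out 84 genes above and 7 below, and *Irgm1*, *Iigp1*, *Tgtp2* and *Ifi47* lie to the right of the line.

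Summed over the 7 genes, the IRG level was 173.5, 171, 177 and 179 FPKM in DMSO 1 to 4 and 280.0, 284, 291 and 289.9 FPKM in DADA 1 to 4. The groups did not overlap, and the mean rose from 175 ± 3.33 to 286 ± 5.15 FPKM (SD, n = 4 each), a log2 ratio of 0.71 (two-sided exact permutation test, p = 0.0286). The 3 regulatory genes together went from 118 ± 1.99 to 179.5 ± 2.65 FPKM, a log2 ratio of 0.61, and the 4 effector genes from 57.2 ± 1.97 to 106.5 ± 2.57 FPKM, a log2 ratio of 0.90 (n = 4 each, exact permutation p = 0.0286 for both).

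The ratio of the classes turned on 1 gene, *Igtp*, which made up 78.5% ± 0.459 of the summed regulatory FPKM with DMSO and 68.7% ± 0.808 with DADA (SD, n = 4 each). The ratio of summed regulatory to summed effector FPKM was 1.997, 2.16, 2.06 and 2.04 in DMSO 1 to 4 and 1.69, 1.71, 1.67 and 1.67 in DADA 1 to 4. All DADA ratios were below all DMSO ratios, by 0.29 on the log2 scale (two-sided exact permutation test, p = 0.0286). Without *Igtp*, left out after the data were seen, the direction reversed. *Irgm1* and *Irgm2* together went from 25.4 ± 0.696 to 56.1 ± 1.08 FPKM, a log2 ratio of 1.14, and their ratio to the effectors rose from 0.445 ± 0.0227 to 0.527 ± 0.0158, by 0.25 on the log2 scale (n = 4 each, exact permutation p = 0.0286). Without *Irgm1* the ratio fell by 0.47. By gene, the share of *Igtp* in the summed IRG FPKM fell from 52.8% ± 0.355 to 43.1% ± 0.505 (SD, n = 4 each), and that of *Irgm1* rose from 8.91% ± 0.558 to 14.7% ± 0.455. The share of *Irgm2* fell from 5.60% to 4.95%, while those of *Iigp1* (3.00% to 4.07%), *Ifi47* (18.8% to 20.99%) and *Tgtp2* (4.46% to 5.63%) rose. These 6 shares had p = 0.0286 and adjusted p = 0.0333 over the 7 shares in two-sided exact permutation tests. The share of *Tgtp1* was 6.44% and 6.55% (exact permutation p = 0.514).

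**Figure D3:**
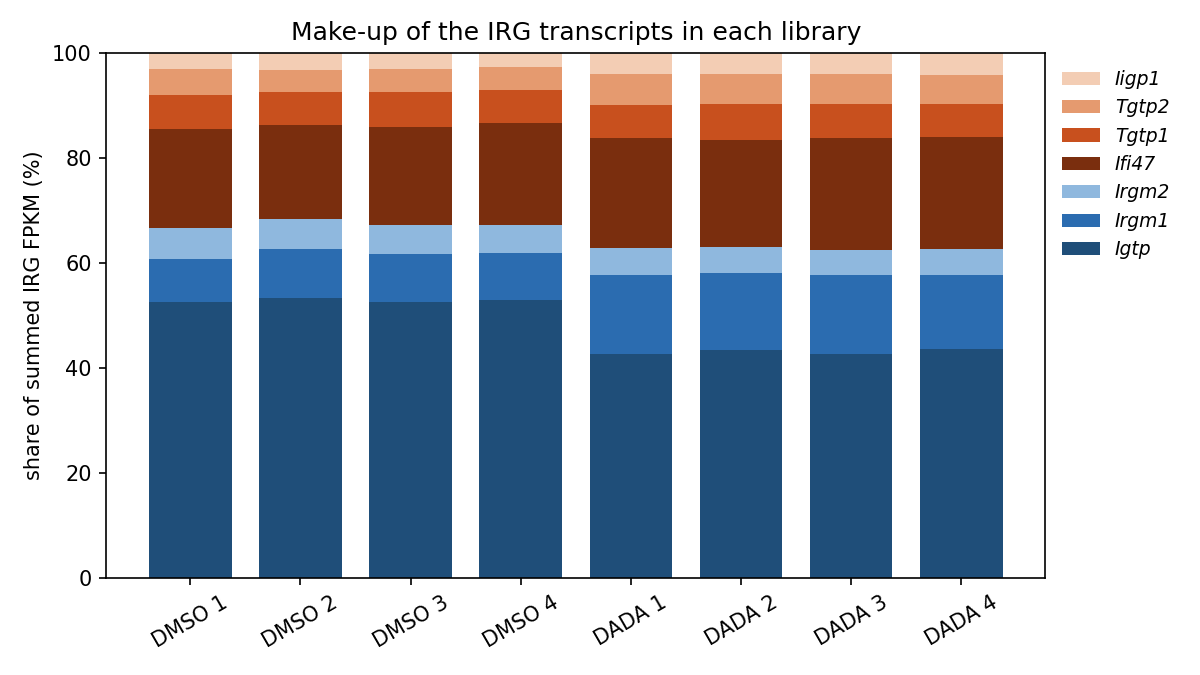
Share of each IRG gene in the summed IRG FPKM of each library, in percent, stacked from 0 to 100, with regulatory genes in blue and effector genes in orange and brown. The *Igtp* segment is 52.5% to 53.3% high in the DMSO libraries and 42.6% to 43.6% in the DADA libraries, and the *Irgm1* segment is 8.14% to 9.45% and 14.1% to 15.1%.

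The table also held 9 further genes of the IRG family, 3 of which passed the filter on low values. All 3 were called higher, as were 30.9% of all genes tested. *9930111J21Rik2* was at 2.06, 2.31, 2.34 and 2.26 FPKM in DMSO 1 to 4 and at 8.68, 8.30, 9.21 and 9.20 FPKM in DADA 1 to 4, and *9930111J21Rik1* went from 1.99 ± 0.0957 to 6.82 ± 0.375 FPKM (SD, n = 4 each). Their log2 differences of 1.602 and 1.39 were both above that of *Irgm1*, a comparison that was not tested. *Irgq*, a divergent member, went from 2.63 to 3.38 FPKM, a log2 difference of 0.27 (limma with Benjamini-Hochberg, adjusted p = 0.00140).

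The remaining 6 family genes were low. *Gm12185* was at 0.196 to 0.408 FPKM with DMSO and 0.887 to 1.20 FPKM with DADA, and *Iigp1c* (*Gm4951*) at 0.206 to 0.248 and 0.911 to 0.982 FPKM. *Irgc* (0.194 to 0.518 and 0.603 to 0.9748 FPKM), *Gm5431* (0.0799 to 0.156 and 0.341 to 0.485 FPKM), *Gm4841* (0.0437 to 0.133 and 0.245 to 0.324 FPKM) and *F830016B08Rik* (0 to 0.0715 and 0.117 to 0.259 FPKM) were under 1 FPKM in all 8 libraries. In all 6 the groups did not overlap, with DADA above. The share of 28.4% given above is for genes that passed the filter, and none was taken over genes as low as these 6. Some of the transcript of *Gm12185* also occurs in that of *Tgtp1*, so its value is uncertain.

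*Ifng*, which encodes the ligand best known to drive IRG expression, was itself higher with DADA. It stood at 376, 416, 420.1 and 405 FPKM in DMSO 1 to 4 and at 651, 638, 649 and 659 FPKM in DADA 1 to 4. The groups did not overlap, with a log2 difference of 0.68 (95% confidence interval 0.61 to 0.76, adjusted p = 6.39e-08, limma with Benjamini-Hochberg). Of the 5 type I interferon genes in the table none passed the filter. *Ifnb1*, *Ifna2* and *Ifna4* were listed at 0 in all 4 DMSO libraries, and at 0.133 to 0.536, 0.310 to 0.867 and 0.421 to 1.10 FPKM in the DADA libraries, while *Ifnk* and *Ifne* were listed at 0 in all 8.

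The receptors moved in opposite directions. *Ifngr1*, the ligand-binding chain of the IFN-γ receptor, rose from 71.3 ± 1.51 to 89.0 ± 0.716 FPKM (log2 difference 0.32), and *Ifnar1*, a chain of the type I receptor, fell from 41.4 ± 0.607 to 31.9 ± 0.993 FPKM (a log2 difference of -0.37). For the partner chains *Ifngr2* (3.38 and 3.24 FPKM) and *Ifnar2* (22.9 and 21.8 FPKM) the groups overlapped and limma made no call. The kinases that these receptors carry differed little, with log2 differences of 0.19 for *Tyk2*, 0.12 for *Jak2* and -0.16 for *Jak1*, all called by limma. Of all genes tested, 66.2% were called.

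Of the 7 transcription factors, 6 were called higher and 1 lower, where 30.9% of all genes tested were called higher and 35.3% lower. *Irf7*, which amplifies type I interferon responses, rose from 1.15 ± 0.0913 to 29.5 ± 0.433 FPKM (log2 difference 3.83). *Stat2* (11.9 to 32.4 FPKM) and *Irf9* (11.98 to 29.8 FPKM), which act together on the ISRE, had log2 differences of 1.38 and 1.25. *Irf8* (0.55) and *Irf2* (0.22) rose by less. *Irf1*, an activator of IFN-γ targets, was at 31.6, 33.8, 33.1 and 33.2 FPKM in DMSO 1 to 4 and at 29.1, 29.6, 28.7 and 28.8 FPKM in DADA 1 to 4. It fell in every DADA library relative to the DMSO range, by 0.18 on the log2 scale (limma with Benjamini-Hochberg, adjusted p = 0.000296).

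Of the 7 inhibitors of interferon signalling, 5 were called higher, 1 lower and 1 was not called. Over all genes tested, 30.9% were called higher and 35.3% lower. *Usp18*, which blocks the type I receptor, rose from 0.637 ± 0.198 to 30.5 ± 0.883 FPKM (log2 difference 4.27), and *Socs3*, an inhibitor of cytokine receptors, from 5.37 to 13.8 FPKM (1.22). *Usp18* was under 1 FPKM in all 4 DMSO libraries. It passed the filter through the DADA libraries alone and could only be called higher. The phosphatases *Ptpn2* (0.33) and *Ptpn6* (0.14) rose, as did *Socs1* (0.21), which acts on the IFN-γ receptor's kinases. *Ptpn11* fell by 0.13, and *Pias1* was at 8.50 and 7.96 FPKM with overlapping groups.

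The guanylate-binding proteins, a sister family of GTPases that act with IRGs on pathogen vacuoles, divided by direction. Of 11 genes, 10 passed the filter, 8 were called higher and 2 lower, with a median log2 difference of 0.79. Among all genes tested, 30.9% were called higher and 35.3% lower. *Gbp3* (12.7 to 26.7 FPKM, log2 difference 1.01) and *Gbp10* (3.96 to 8.35 FPKM, 0.92) rose by the largest amounts on this scale, while *Gbp11* (3.89 to 1.68 FPKM, -0.87) and *Gbp8* (20.5 to 13.7 FPKM, -0.55) fell. Members of this family are known to resemble each other in sequence, and how much their transcripts share was not measured here. Of the other interferon-inducible GTPases, the antiviral *Mx2* (0.218 to 9.68 FPKM, 3.13) and *Mx1* (1.23 to 17.9 FPKM, 3.08) and also *Gvin1* (0.71) were all called higher. *Mx2* was under 1 FPKM in all 4 DMSO libraries. It passed the filter through the DADA libraries alone and could only be called higher.

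Targets of IFN-γ outside the GTPases were mixed, and 9 of the 14 that passed the filter (20 in the table) were called higher and 3 lower, with a median log2 difference of 0.29. The shares over all genes tested were 30.9% called higher and 35.3% lower. *Cxcl10*, a chemokine that type I interferons also induce, rose from 2.61 to 33.9 FPKM (3.28) and *Nos2*, the inducible nitric oxide synthase, from 0.0879 to 2.46 FPKM (1.67). *Cd274*, which encodes PD-L1, fell from 37.9 to 22.2 FPKM (-0.75) and *Psme2*, a proteasome activator subunit, from 172 to 149 FPKM (-0.21). Of the targets of type I interferon, 18 of 18 were called higher, with a median of 2.35, led by the ubiquitin-like modifier *Isg15* (3.16 to 147 FPKM, 5.16) and *Oasl1* (0.298 to 19.3 FPKM, 3.97). Many of these 18, *Oasl1* among them, were under 1 FPKM in all 4 DMSO libraries, as was *Nos2*. Such genes passed the filter through the DADA libraries alone and could only be called higher, so the count and median of this list lean toward a rise. The median of the 7 IRG genes, 0.85, lay between the medians of these target lists, and the difference between lists was not tested.

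IRGs depend on the autophagy conjugation machinery, which helps place them on vacuoles. Of its 15 genes, 14 passed the filter, 5 were called higher and 2 lower, with a median log2 difference of 0.07, where 30.9% of all genes tested were called higher and 35.3% lower. The count called higher was thus near that of all genes. *Map1lc3b* (13.7 to 19.6 FPKM, 0.49) and *Gabarap* (44.5 to 60.9 FPKM, 0.45), which encode the conjugated ubiquitin-like proteins, rose, and the conjugating enzymes *Atg10* (3.68 to 2.96 FPKM, -0.24) and *Atg3* (32.6 to 28.3 FPKM, -0.20) fell. Among 6 genes of autophagy initiation and vacuole tagging, 3 were called higher and 0 lower, with a median of 0.06. Of these, *Trim21* (4.64 to 8.24 FPKM, 0.71), a ubiquitin ligase, and the ubiquitin-binding adaptor *Sqstm1* (145 to 181 FPKM, 0.32) rose by the larger amounts.

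**Figure D4:**
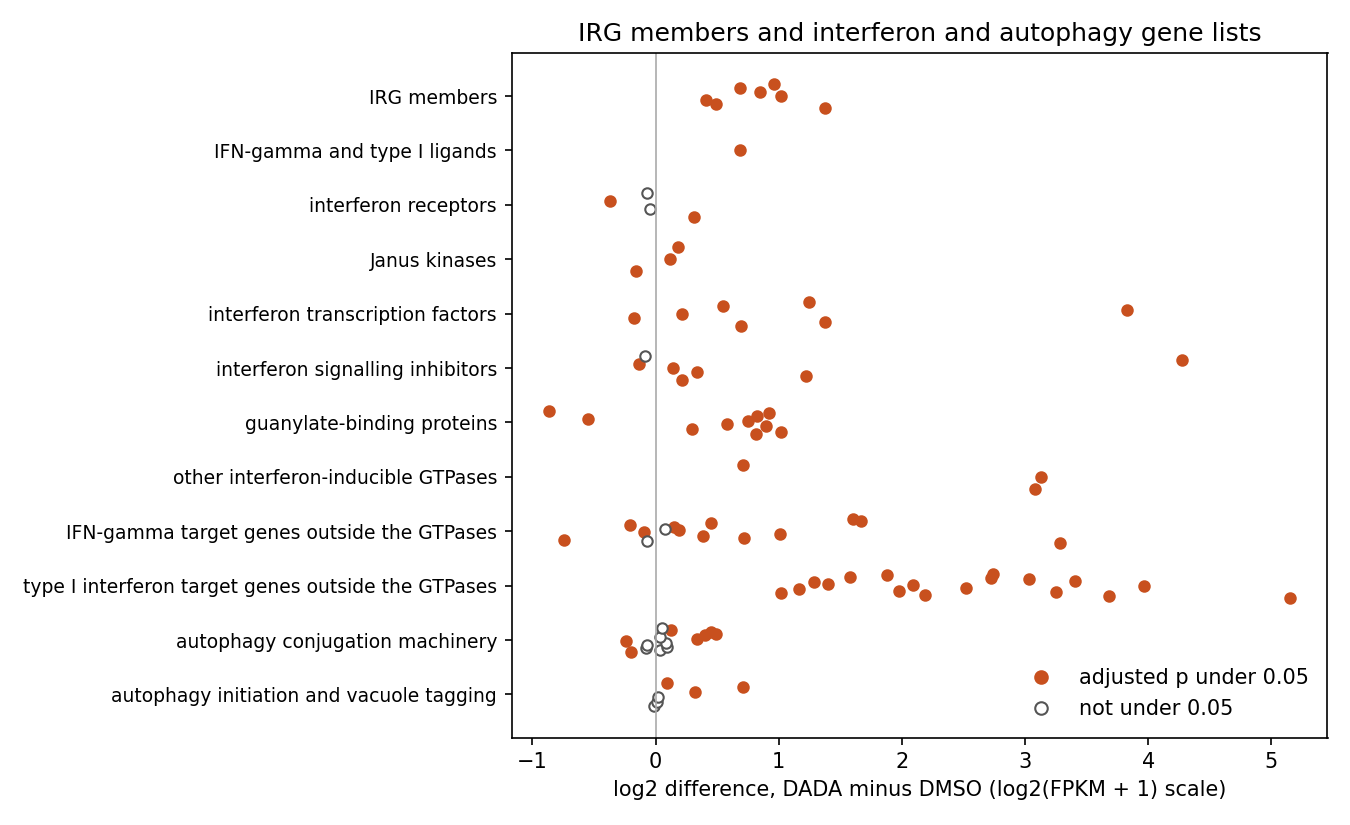
Log2(FPKM + 1) difference (DADA minus DMSO) of each gene that passed the filter, 1 row for each gene list, filled where limma's adjusted p was under 0.05 and open where it was not. The 7 IRG genes lie from 0.41 to 1.37, below the type I interferon targets (1.02 to 5.16) except for the overlap of *Irgm1* with the lowest of them, and within the range of the guanylate-binding proteins (-0.87 to 1.01) except for *Irgm1* and *Iigp1*.

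Each gene's log2(FPKM + 1) profile over the 8 libraries was centred on its own mean in the DMSO libraries. For each IRG gene the 2 genes with the nearest such profiles by Euclidean distance were then sought. For *Irgm1* they were *Stat2* (distance 0.164) and *Acod1* (0.172), which encodes the itaconate-making enzyme of activated macrophages and was at 0.0327 and 1.59 FPKM. For *Iigp1* they were *Gbp3* (0.125) and *Ccr3* (0.155), and for *Ifi47* *Irf5* (0.113), an interferon regulatory factor, and *Dennd11* (0.123). For *Igtp* they were *Dgka* (0.0453), a diacylglycerol kinase that restrains T cell receptor signalling, and *Tgoln1* (0.0723), and for *Irgm2* *Cblb* (0.0673), a ubiquitin ligase that restrains T cell activation, and *Zdhhc18* (0.0810). For *Tgtp1* they were *Klf8* (0.0760) and *Zswim6* (0.118), and for *Tgtp2* *Eno1b* (0.159) and *Eno1* (0.162), the glycolytic enolase and its near-copy. In these 8 libraries the profile is mostly the difference between the groups.

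IRGs are also expressed by macrophages and other cells, so markers of other cell types were read beside these values. The CD8 T cell markers *Cd3d*, *Cd3e*, *Cd3g*, *Cd8a* and *Cd8b1* summed to 674 to 680.1 FPKM with DMSO and 776 to 805 FPKM with DADA, and all 5 were called higher by limma, with log2 differences of 0.08 to 0.35. Of all genes tested, 30.9% were called higher. The 7 macrophage and monocyte markers summed to 3.51 to 3.99 and 5.18 to 5.75 FPKM, almost all from *Cd68* (log2 difference 0.44, called higher by limma), with *Csf1r* and *Adgre1* at 0 in all 8 libraries. The dendritic cell markers summed to 3.69 to 4.61 and 1.89 to 2.48 FPKM, mostly from *Zbtb46* (4.11 to 1.999 FPKM, log2 difference -0.77, called lower by limma), with *Clec9a* at 0. The low *Flt3* (0 with DMSO, 0.0218 to 0.0464 FPKM with DADA) and *Xcr1* (0 to 0.0454 and 0.0750 to 0.131 FPKM) went the other way, without overlap. The B cell markers summed to 2.59 to 3.54 and 2.36 to 3.09 FPKM, almost all from *Cd79b* (2.42 to 3.47 and 2.18 to 2.90 FPKM), with *Pax5* at 0. CD4 T cell markers summed to 16.1 to 17.2 and 15.2 to 15.7 FPKM, almost all from *Zbtb7b* (15.9 to 16.7 and 14.8 to 15.3 FPKM). *Cd4* itself was at 0.144 to 0.411 FPKM with DMSO and 0.151 to 0.272 FPKM with DADA. *Foxp3* was at 0.0426 to 0.103 and 0.187 to 0.268 FPKM, with DADA above. NK cell markers summed to at most 0.766 FPKM and erythroid markers to at most 0.241 FPKM. Of the NK cell markers, *Klrb1c* was higher with DADA (0 to 0.0484 and 0.144 to 0.249 FPKM), without overlap. *Klri2* was lower (0.446 to 0.625 and 0.155 to 0.430 FPKM), also without overlap. Markers this low did not pass the filter, and no share was taken over genes at such levels. The part of these cells in the IRG values was not tested. The FPKM sum of a library was 450473 to 456939 with DMSO and 438299 to 449480 with DADA, and the estimated depth was 13670000 to 16370000 and 15110000 to 18650000 fragments.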

How the data were processed

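Bulk RNA-seq of 8 libraries of CD8+ T cells was used, 4 treated with DMSO and 4 with DADA, grouped by their titles. Each gene had 1 value per library, in FPKM, which the authors made from paired reads of 150 bases and deposited. The submitters' processing notes name CASAVA 1.8.2, FastQC 0.11.9, HISAT2 2.0.5, StringTie 1.3.3, Picard 1.41 and SAMtools 0.1.18, with no roles given, and list a human and a mouse build. The deposited table was not joined to coordinates of its own build, and those given are from GRCm38. The largest share of identical non-zero values in any pair of libraries was 0.0151%.

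Values were analysed as log2(FPKM + 1) with limma 3.58.1 in R 4.3.3 (lmFit, group as the 1 term, eBayes with trend, Benjamini-Hochberg over 10666 genes), after keeping genes at 1 FPKM or more in at least 4 libraries. A call is an adjusted p under 0.05. Single values were permuted over all 70 assignments of libraries to groups (two-sided exact test). The limma step was tested on simulated data. The members and lists were chosen with earlier results of these data known. Named are all members, listed IRG genes and genes of interferon signalling that passed the filter, the 2 called genes with the largest difference in each direction of other lists, and the nearest profiles. *Bst2* was named for its promoter alone. A few listed genes and markers are left unnamed in the text but stay in the list counts and sums.

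FPKM hold no counts. Depth was estimated from steps between low values of 4431 genes with 1 transcript, of which 41.7% to 47.2% were within 0.1 of a whole fragment (20% by chance), so no count test was run. Alternatives were a pseudocount of 0.1, no filter, a mean of 5 FPKM, other scalings, no trend, the replicate block, each library left out, the Tgtp genes summed or left out, each gene left out of the sums, and no assembled transcripts. Python 3.11.15, numpy 2.4.6, pandas 2.3.3, biopython 1.88 and matplotlib 3.10.9 were also used.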

Additional observations from a re-analysis of the deposited data

Results flagged for a closer look

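In each group of 4 libraries the highest or lowest value was checked for standing apart, as a gap to the nearest value, divided by the group's range, above Dixon's critical value. This was found for 5 of 128 groups looked at, where chance gives about 1 in 20. Among the IRG genes it was *Irgm1* in DMSO 1 (14.1 FPKM, where the others were 15.95 to 16.2), with a gap of 0.881 of the range, and without this library the log2 difference was 1.33 in place of 1.37. The others were *Tyk2* in DMSO 3 (0.887), *Ptpn2* in DMSO 1 (0.834), *Usp18* in DADA 2 (0.861) and *Atg10* in DADA 1 (0.851).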

How the results depend on the processing

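All 7 IRG genes were called higher under each of the alternatives run on them, with a largest adjusted p of 4.48e-05 (limma, Benjamini-Hochberg, *Irgm2*). The log2 difference of *Irgm1* ranged from 1.37 to 1.42 and that of *Igtp* from 0.41 to 0.46 over the alternatives other than leaving out a library. Leaving out each library in turn gave 1.33 to 1.39 for *Irgm1*, 0.40 to 0.43 for *Igtp*, 0.70 to 0.72 for the summed IRG level and -0.31 to -0.27 for the ratio of regulators to effectors. That ratio rests on *Igtp*, since with each gene left out in turn, tried after the data were seen, it was 0.25 without *Igtp*, -0.47 without *Irgm1* and -0.33 to -0.26 without any other gene, and the summed level ranged from 0.61 to 0.98. Other scalings moved the median of all genes by at most 0.03. With no filter, ligands called higher were 4 in place of 1 and further IRG genes 9 in place of 3. IFN-γ targets called higher were then 10 in place of 9, and autophagy conjugation genes called higher 4 in place of 5. Scaling to the same total also gave 10 IFN-γ targets called higher. With a mean of at least 5 FPKM, the guanylate-binding proteins called lower were 1 in place of 2, type I targets called higher 11 in place of 18, autophagy conjugation genes called lower 1 in place of 2 and further IRG genes 1 in place of 3, since fewer genes were tested. That mean also gave 2 in place of 3 other interferon-inducible GTPases called higher. It gave 8 in place of 9 IFN-γ targets and 4 in place of 5 autophagy conjugation genes called higher. Quantile normalization gave 2 inhibitors called lower in place of 1, with *Pias1* added. Receptors called lower were 1 to 2 over the libraries left out, and without DADA 2 *Ifnar2* was added, for which the cause was not tested. The pairs of IRG genes that differed were 11 with either pseudocount, but not the same 11. With 0.1 FPKM the pair of *Irgm1* and *Iigp1* no longer passed, and that of *Iigp1* and *Ifi47* did.

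The replicate numbers did not pair the libraries, with same-number correlations of -0.12 to 0.10 and 0 of 4 DMSO libraries closest to their own number. With the replicate block 6995 genes were called in place of 7064. An exact sign-flip test over numbered pairs gave p = 0.125, the smallest that 4 pairs allow, for the summed IRG level (0.71) and for the ratio of regulators to effectors (-0.29). No count test could be run on FPKM, and the depth limits *Iigp1* most, at 6.86% counting error.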
